A study of Mus musculus with 12 samples.

Results

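The 8 genes described here encode 2 linked groups of the tumour necrosis factor superfamily. They are the B cell survival ligands BAFF (Tnfsf13b) and APRIL (Tnfsf13) with their receptors BAFF receptor (Tnfrsf13c), TACI (Tnfrsf13b) and BCMA (Tnfrsf17), and RANK ligand (Tnfsf11) with its receptor RANK (Tnfrsf11a) and its soluble decoy osteoprotegerin (Tnfrsf11b). They were found by symbol among the 23329 rows of the count tables, and each of the 8 passed the filter on low counts in every comparison. RNA was sequenced from duodenum and spleen of wild type C57BL/6J mice aged 2 months. One group of each tissue came from mice given AC H6, an antibody that activates LTbR (the lymphotoxin beta receptor), and the other from mice given an isotype control antibody. Each mouse received 100 ul of a 1 mg/ml solution and tissues were taken after 24 hours, with 3 libraries in each of the 4 groups. Nothing in the labels states whether each library is a different mouse. The p-values therefore cover only the spread among these libraries, and that spread may be technical.

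BAFF is bound by all 3 B cell receptors of this group and APRIL by TACI and BCMA. BAFF receptor keeps mature B cells alive through the alternative (non-canonical) NF-kB pathway, the pathway that LTbR itself uses, while BCMA is a receptor of plasma cells. RANK ligand on cells under the follicle epithelium of the gut acts on RANK of epithelial cells and induces M cells, which carry antigen from the lumen to lymphoid tissue. In bone the same pair drives osteoclast formation, and osteoprotegerin blocks it by binding the ligand.

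Library totals ran from 13874091 to 45847467 counts. Levels are given in CPM (read counts scaled to library size, with TMM factors over the 12 libraries). The tissue labels were checked on marker lists. The 8 genes of intestinal epithelium summed to at least 12939 CPM in each duodenum library and at most 29.3 CPM in each spleen library, and the 9 B cell genes to at most 24.2 CPM in duodenum and at least 2040.5 CPM in spleen. The extraction text in the labels speaks of brain. The 8 brain genes summed to 52.9 to 67.4 CPM in duodenum and 77.8 to 90.4 CPM in spleen, mostly from Mbp. Pancreatic acinar genes varied within groups of duodenum, with amylase 2 at 0.00333%, 0.745% and 8.64% of counts in AC H6 replicates 1, 2 and 3 and at 0.00356%, 2.13% and 0.0263% in isotype replicates 1, 2 and 3. None of the 8 acinar genes was called in duodenum by edgeR, also at an unadjusted p under 0.05 (0 genes), and they summed to 32.6 to 37550 CPM after AC H6 and 27.3 to 9542 CPM after isotype. Rn45s, a ribosomal RNA row, took 7.56% of counts in duodenum isotype replicate 1. Its next highest share was 1.18%, in duodenum AC H6 replicate 2. Haemoglobin took 13.4% to 24.3% of counts in AC H6 spleens and 6.58% to 16.3% in isotype spleens. The 8 red cell precursor genes summed to 114092 to 254188 CPM in AC H6 spleens and 49437 to 144037 CPM in isotype spleens, with none called by edgeR and 5 at an unadjusted p under 0.05. These are whole-tissue samples, in which fewer cells of a type and less RNA per cell cannot be told apart.

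In the duodenum AC H6 changed 6 of the 8 genes, against 34.6% of all 15667 genes tested there. RANK ligand, RANK, osteoprotegerin and BAFF receptor rose (4 higher, against 18.5% of all genes), and BAFF and APRIL fell (2 lower, against 16.1%). TACI and BCMA did not pass the test. The median log2 fold change of the 8 genes was 0.30, beside 0.01 over all genes tested. Fold changes come from the quasi-likelihood test of edgeR, with p-values adjusted by the Benjamini-Hochberg method over all genes of a comparison. The ± after a log2 fold change is a standard error derived from the test's F value, which can be too small at low counts. A gene is called at an adjusted p under 0.05.

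**Figure D1:**
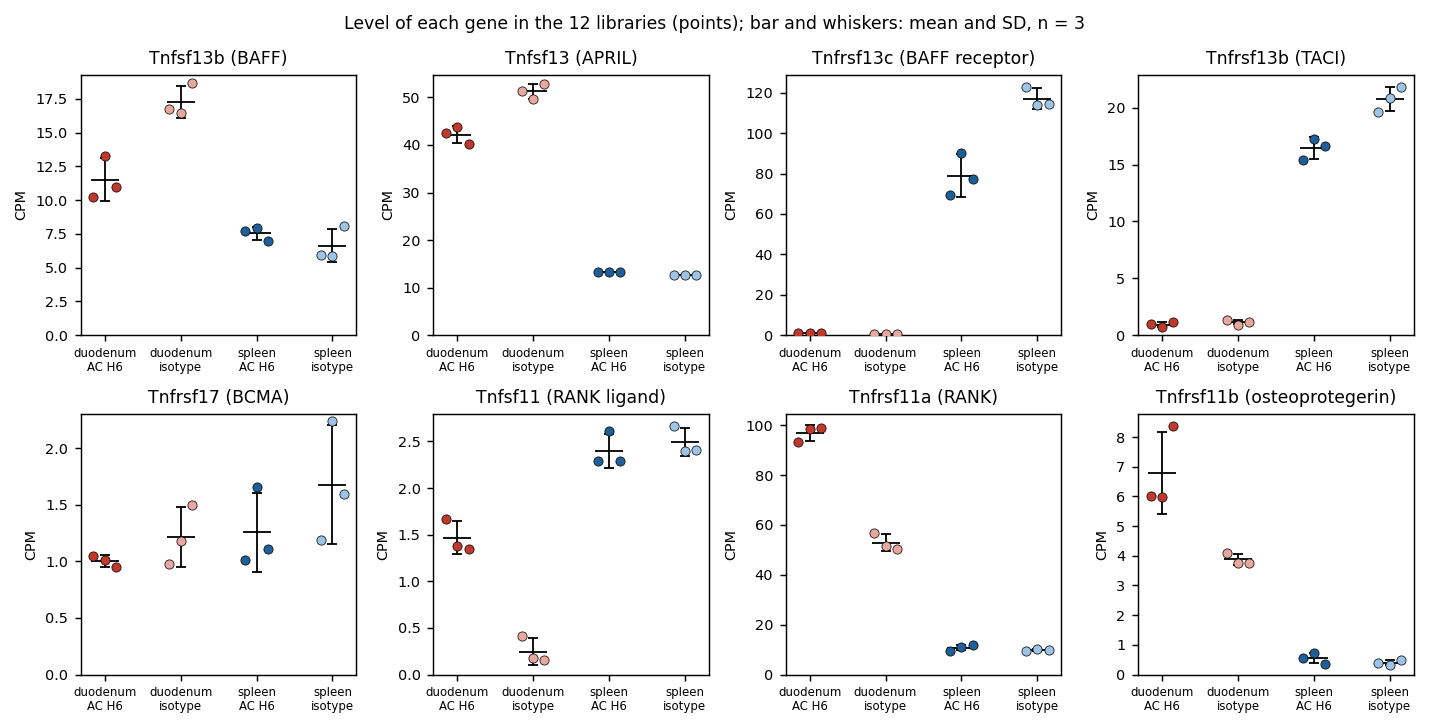
Level of each of the 8 genes in CPM (vertical axes, each from 0) in the 12 libraries, by group along the horizontal axis. Points are libraries, and bar and whiskers are the mean and SD (n = 3). The 3 AC H6 duodenum points of Tnfsf11, Tnfrsf11a and Tnfrsf11b lie above the 3 isotype duodenum points, and those of Tnfsf13b and Tnfsf13 lie below them.

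The 3 members with the largest rises in duodenum are shown here with the 250 bases before their annotated start, from RefSeq on GRCm38.p6, since they rose together. The windows are chr14:78308044-78308293 (minus strand) for Tnfsf11, chr1:105780473-105780722 (plus strand) for Tnfrsf11a and chr15:82224381-82224630 (minus strand) for Tnfrsf13c. They are printed 5′ to 3′, and the capitals mark overlapping matches, on opposite strands, to the TATA box letters TATAA.
Tnfsf11: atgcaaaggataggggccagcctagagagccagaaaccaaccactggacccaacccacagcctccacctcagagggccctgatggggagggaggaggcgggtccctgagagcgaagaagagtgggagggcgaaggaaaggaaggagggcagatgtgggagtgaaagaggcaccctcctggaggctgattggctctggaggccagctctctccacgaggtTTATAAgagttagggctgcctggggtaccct
Tnfrsf11a: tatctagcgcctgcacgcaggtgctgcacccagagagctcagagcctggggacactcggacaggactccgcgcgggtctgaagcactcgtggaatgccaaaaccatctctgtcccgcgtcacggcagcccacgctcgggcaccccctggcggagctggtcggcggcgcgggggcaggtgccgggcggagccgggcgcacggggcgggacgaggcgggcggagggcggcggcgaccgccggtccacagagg
Tnfrsf13c: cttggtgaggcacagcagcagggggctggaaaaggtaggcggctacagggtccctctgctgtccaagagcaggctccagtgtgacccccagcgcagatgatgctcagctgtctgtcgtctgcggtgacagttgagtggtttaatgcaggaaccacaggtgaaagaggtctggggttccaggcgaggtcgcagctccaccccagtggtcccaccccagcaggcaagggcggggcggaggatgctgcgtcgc
The search covered 250 bases before and 50 after each start, on both strands, and 7 of the 8 genes had an entry, in 8 windows (Tnfsf13b has a pair of starts that share bases). Only Tnfsf11 among the 3 printed held TATAA, from base 221 to 225 of its window, where base 251 is the start. Of all 32851 promoter windows 24.9% held it. The NF-kB consensus matched 0 of the 8 windows, while 8.46% of all windows held it. The AP-1 letters TGANTCA matched the windows of Tnfsf13 and Tnfsf13b, against 7.81% of all windows. A match or its absence says only which letters stand in these windows.

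The RANK axis gave the largest change. Tnfsf11, RANK ligand (chromosome 14, 78277445 to 78308043, minus strand), had 1.67, 1.38 and 1.35 CPM in AC H6 duodenum replicates 1, 2 and 3, against 0.41, 0.173 and 0.157 CPM in isotype replicates 1, 2 and 3. All 3 AC H6 libraries lay above all 3 isotype libraries, and the isotype level rested on 17 counts in all, against 144 counts after AC H6. The log2 fold change was 2.66 ± 0.32, a 6.33-fold rise (edgeR adjusted p = 6.49e-04). Tnfrsf11a, RANK (chromosome 1, 105780718 to 105847981, plus strand), had 93.3, 98.4 and 99.1 CPM in AC H6 duodenum, against 56.9, 51.5 and 50.3 CPM in isotype duodenum. Its groups did not overlap either, and its log2 fold change of 0.90 ± 0.06 (1.86-fold, edgeR adjusted p = 5.05e-05) had the smallest p of the 8 genes in this tissue. Tnfrsf11b, osteoprotegerin (chromosome 15, 54250619 to 54278484, minus strand), had 6.00, 5.98 and 8.38 CPM after AC H6, against 4.10, 3.77 and 3.77 CPM after isotype. It rose by 0.84 ± 0.16 on the log2 scale (edgeR adjusted p = 5.01e-03), with AC H6 replicate 3, the library with the highest amylase share, as its highest value.

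Ligand and decoy were also compared within each library. The log2 ratio of RANK ligand to osteoprotegerin, each as CPM plus 0.5, was -1.58, -1.79 and -2.26 in AC H6 duodenum and -2.34, -2.67 and -2.70 in isotype duodenum. The ligand was below its decoy in every duodenum library, as it was per kilobase of exon, and the groups did not overlap. The difference was 0.69 (two-sided exact permutation p = 0.1, which is the smallest that 3 libraries against 3 can give). Its size depends on the pseudocount, since with a pseudocount of 2 in place of 0.5 it was 0.058 (two-sided exact permutation p = 0.8). The isotype duodenum levels of Tnfsf11 (0.41, 0.173 and 0.157 CPM) lay below both pseudocounts, and adding either shrinks a change at such levels. In the edgeR test on counts the ligand rose by 2.66 ± 0.32 and the decoy by 0.84 ± 0.16 on the log2 scale. In spleen the ligand lay above the decoy, with log2 ratios of 1.39, 1.34 and 1.69 after AC H6 and 1.82, 1.80 and 1.58 after isotype. Those groups overlapped (difference -0.26, two-sided exact permutation p = 0.2), and with a pseudocount of 2 the difference was -0.12 (two-sided exact permutation p = 0.2).

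Among the BAFF and APRIL genes the duodenum showed changes in both directions. Tnfsf13b, BAFF (chromosome 8, 10006467 to 10039072, plus strand), had 10.2, 13.3 and 10.9 CPM in AC H6 duodenum, against 16.8, 16.4 and 18.6 CPM in isotype duodenum, a log2 fold change of -0.57 ± 0.11 (edgeR adjusted p = 5.39e-03). Tnfsf13, APRIL (chromosome 11, 69682846 to 69685784, minus strand), had 42.4, 43.7 and 40.2 CPM, against 51.4, 49.6 and 52.7 CPM, a log2 fold change of -0.26 ± 0.05 (edgeR adjusted p = 5.45e-03). For both ligands every AC H6 library lay below every isotype library. The APRIL row can also hold reads of 2 annotated genes that overlap it and have no row of their own, the read-through gene Tnfsfm13 on the same strand and Tnfsf13os on the opposite strand, since the library kit does not mark strand. The rows of BAFF and TACI can likewise hold reads of Gm44789 and Gm12269, annotated on the opposite strand. Tnfsf12, the neighbouring ligand TWEAK that the read-through gene includes, had a log2 fold change of 0.15 ± 0.13 and was not called.

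The receptor Tnfrsf13c (BAFF receptor, chromosome 15, 82221743 to 82224369, minus strand) had 1.28, 1.2 and 1.22 CPM in AC H6 duodenum, against 0.769, 0.449 and 0.55 CPM in isotype duodenum. It rose by 1.12 ± 0.23 on the log2 scale (edgeR adjusted p = 7.35e-03), on 121 counts after AC H6 and 42 after isotype, and its groups did not overlap. Tnfrsf13b, TACI (chromosome 11, 61126755 to 61149372, plus strand), overlapped between the groups, with 0.986, 0.688 and 1.14 CPM after AC H6 and 1.33, 0.933 and 1.18 CPM after isotype (log2 -0.23 ± 0.25, edgeR adjusted p = 0.496). Tnfrsf17, BCMA (chromosome 16, 11313812 to 11320074, plus strand), overlapped as well, with 1.05, 1.02 and 0.946 CPM after AC H6 and 0.974, 1.17 and 1.49 CPM after isotype (log2 -0.27 ± 0.21, edgeR adjusted p = 0.354). The B cell list was measured beside BAFF receptor. The 9 B cell genes summed to 22.7 to 24.2 CPM in AC H6 duodenum and 16.5 to 18.6 CPM in isotype duodenum. Of the 8 B cell genes tested there 2 rose (Cd22 by 0.73 ± 0.12 and Bank1 by 0.89 ± 0.15) and 6 were not called, with a median of 0.38, where 18.5% of all genes were called higher. Ms4a1, which encodes a B cell surface protein, had 0.941 ± 0.126 CPM after AC H6 and 0.724 ± 0.211 CPM after isotype (SD, n = 3 each). The part of B cells in the rise was not tested. Of the 8 plasma cell genes tested, which share BCMA's cell type, none rose, 2 fell (Cd38 and Sdc1, both also made by other cells) and 6 were not called, and Igj, the joining chain of secreted IgA, had 445 ± 76.5 CPM after AC H6 and 465 ± 32.9 CPM after isotype (SD, n = 3 each).

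All 6 duodenum calls were kept when any 1 library was left out and with an acinar score as covariate. The libraries left out included isotype replicate 1, which had the highest Rn45s share. With the 3 duodenum libraries of low amylase alone (AC H6 replicate 1, isotype replicates 1 and 3), a setting chosen after the data were seen in which the lone AC H6 library is assumed to vary like the isotype ones, 4 of the 6 calls were kept, among them Tnfsf11 at a log2 fold change of 2.62 and Tnfrsf11a at 0.82. Tnfrsf13c (log2 0.99, edgeR adjusted p = 0.142, range over its alternatives 1.36e-03 to 0.142) and Tnfsf13 (log2 -0.28, edgeR adjusted p = 0.084, range 9.25e-04 to 0.084) were not called in that smaller fit.

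**Figure D2:**
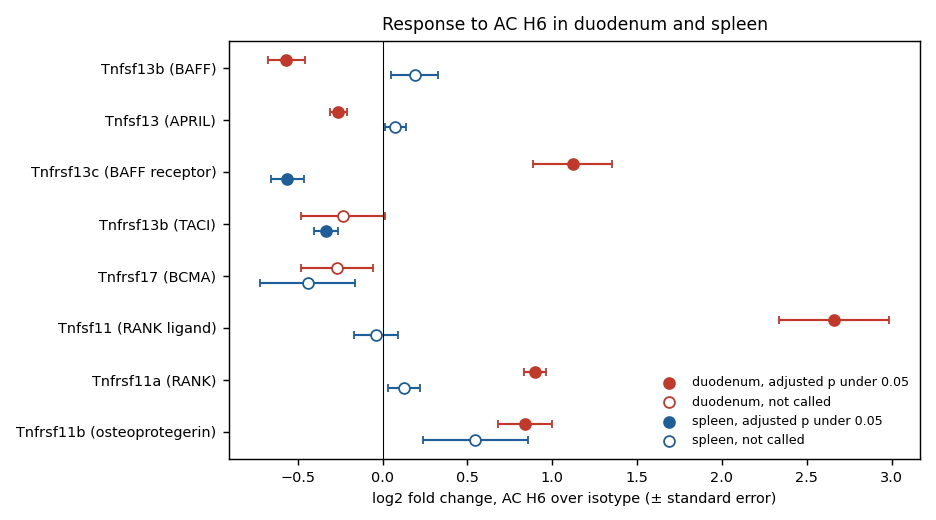
Log2 fold change of AC H6 over isotype (horizontal axis, ± standard error) for each of the 8 genes in duodenum (red) and spleen (blue), filled where the adjusted p was under 0.05. RANK ligand stands at 2.66 in duodenum and -0.04 in spleen, and BAFF receptor at 1.12 in duodenum and -0.56 in spleen.

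In the spleen AC H6 changed 2 of the 8 genes, against 3.98% of all 15270 genes tested. Both were B cell receptors and both fell (2 lower, against 1.92% of all genes, and 0 higher, against 2.06%). Tnfrsf13c had 69.3, 90.2 and 77.5 CPM in AC H6 spleen, against 122.9, 113.8 and 114.3 CPM in isotype spleen, a log2 fold change of -0.56 ± 0.10 (edgeR adjusted p = 0.0317). Tnfrsf13b had 15.4, 17.3 and 16.7 CPM, against 19.6, 20.9 and 21.8 CPM, a log2 fold change of -0.34 ± 0.07 (edgeR adjusted p = 0.0486). For both receptors each AC H6 library lay below each isotype library. The call of neither held in all settings. With 1 library fewer, neither was called without isotype 1, 2 or 3 or without AC H6 1 or 3 (log2 fold changes of Tnfrsf13c from -0.67 to -0.48 over all alternatives), and with a red cell precursor score as covariate they lay at -0.48 and -0.26 with edgeR adjusted p-values of 0.101 and 0.201.

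The other 6 genes did not pass the test in spleen. Tnfsf13b had 7.69, 7.9 and 7 CPM after AC H6 and 5.96, 5.87 and 8.06 CPM after isotype, with overlapping groups (log2 0.19 ± 0.14). Tnfsf13 had 13.4, 13.4 and 13.2 CPM after AC H6 and 12.7, 12.7 and 12.6 CPM after isotype (log2 0.07 ± 0.06, edgeR adjusted p = 0.463). The AC H6 libraries lay above the isotype libraries without overlap, but the difference did not pass the test. Tnfsf11 had 2.29, 2.61 and 2.29 CPM after AC H6 and 2.67, 2.4 and 2.41 CPM after isotype, with overlapping groups and a log2 fold change of -0.04 ± 0.13 (edgeR adjusted p = 0.944). Tnfrsf11a (0.13 ± 0.09), Tnfrsf11b (0.55 ± 0.31, on 70 counts after AC H6 and 35 after isotype) and Tnfrsf17 (-0.44 ± 0.28) were not called.

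B cell genes as a list lay lower in AC H6 spleens, beside both receptors. Of 9 B cell genes 2 fell (Ebf1 and Fcrla, by 0.41 and 0.40 on the log2 scale), 7 were not called, and the median was -0.29, beside 0.00 over all genes. Of all genes tested in spleen 1.92% were called lower and 2.06% higher. They summed to 2040.5 to 2359 CPM after AC H6 and 2600.2 to 2762 CPM after isotype. The part of B cells in the fall of both receptors was not tested. Of the marginal zone B cell genes, which mark the cells richest in TACI, 2 of 5 fell (Cd1d1 and S1pr3, by 0.32 and 0.33) and 3 were not called. In duodenum 4 of the 5 rose and 1 was not called, where 18.5% of all genes were called higher. Cd9 alone had 50.9 to 59.9 CPM in isotype duodenum, where the 9 B cell genes summed to 16.5 to 18.6 CPM. The list therefore does not measure marginal zone B cells in duodenum. Cr2 had 0.308 to 0.472 CPM in isotype duodenum and 0.435 to 0.676 CPM in AC H6 duodenum. Of the T cell genes tested in spleen 3 of 8 fell (Cd3e, Tcf7 and Cd28), 5 were not called and the median was -0.38. Genes of myeloid cells, which can produce BAFF, were higher, with 6 of 10 higher, 4 not called and a median of 0.41. Csf3r, the granulocyte colony-stimulating factor receptor, had 101 ± 7.12 CPM in AC H6 spleen and 47.6 ± 4.95 CPM in isotype spleen (SD, n = 3 each).

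The difference between the tissues was tested as the interaction of tissue and treatment over all 12 libraries, in which 5 of the 8 genes were called, against 20.0% of 16655 genes. In 3 of them the change was more positive in duodenum (against 10.9% of all genes), namely Tnfsf11 by 2.68 ± 0.34, Tnfrsf13c by 1.67 ± 0.22 and Tnfrsf11a by 0.75 ± 0.11 on the log2 scale (edgeR adjusted p = 3.02e-04, 3.73e-04 and 8.10e-04). In 2 it was more negative (against 9.13%), namely Tnfsf13b at -0.78 ± 0.19 and Tnfsf13 at -0.35 ± 0.07 (edgeR adjusted p = 0.0124 and 4.56e-03). Tnfrsf11b, TACI and BCMA were not called. Tnfrsf13c rose in duodenum and fell in spleen. Without spleen isotype replicate 1 the BAFF interaction had an edgeR adjusted p of 0.0509 (range over its alternatives 2.34e-03 to 0.0509).

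All 8 genes were detected in both tissues without the agonist, at different levels. Between isotype duodenum and isotype spleen 7 of 8 genes differed, against 86.0% of the 16029 genes tested, so that the count itself is near the background. Tnfsf13, Tnfsf13b, Tnfrsf11a and Tnfrsf11b were higher in duodenum (4 genes, against 42.2% of all genes), with log2 fold changes of 1.99 ± 0.06, 1.35 ± 0.13, 2.40 ± 0.08 and 3.25 ± 0.19 in that order. Tnfrsf13c, Tnfrsf13b and Tnfsf11 were lower in duodenum (3 genes, against 43.8%), with log2 fold changes of -7.69 ± 0.13, -4.22 ± 0.12 and -3.42 ± 0.30. BCMA did not pass (-0.53 ± 0.27, edgeR adjusted p = 0.0972), though it was called without spleen isotype replicate 1 (-0.70, edgeR adjusted p = 0.0375, range over its alternatives 0.0375 to 0.434). Between the AC H6 libraries of both tissues the same 7 genes were called. There the difference of Tnfsf11 was -0.73, and those of Tnfrsf11a and Tnfsf13b were 3.15 and 0.58. Each of these tissue differences shares its libraries with the responses within the tissues.

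**Figure D3:**
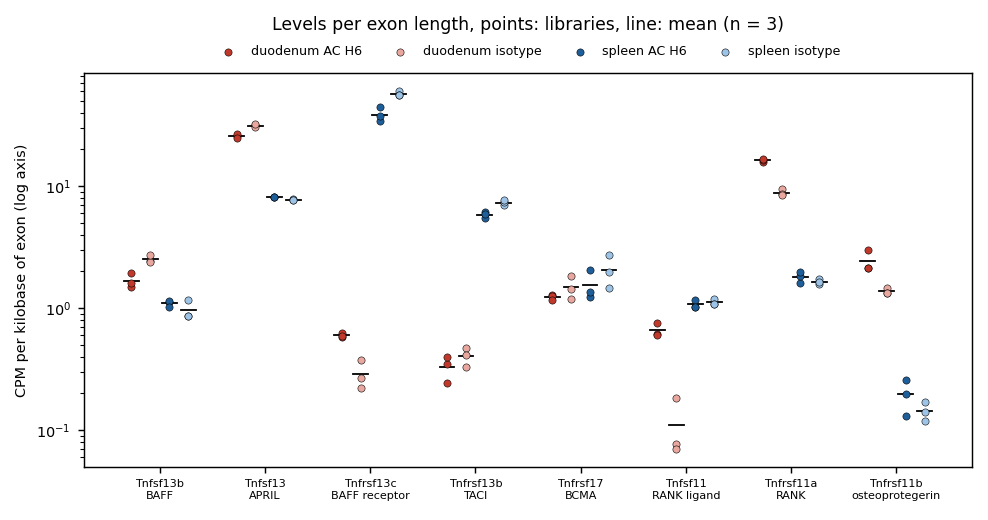
CPM per kilobase of exon (vertical log axis) of the 8 genes in the 4 groups, with points for libraries and a line for the mean (n = 3). Tnfrsf13c is the highest of the 8 genes in both spleen groups and Tnfsf13 in both duodenum groups, while Tnfsf11 in isotype duodenum, at 0.11, is the lowest of all.

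Levels of different genes were compared per kilobase of annotated exon. In AC H6 duodenum the order was Tnfsf13 at 25.7, Tnfrsf11a at 16.2, Tnfrsf11b at 2.41, Tnfsf13b at 1.67, Tnfrsf17 at 1.23, Tnfsf11 at 0.656, Tnfrsf13c at 0.602 and Tnfrsf13b at 0.33 CPM per kilobase. Libraries overlapped there between Tnfsf11 and Tnfrsf13c, and the other neighbours were separate. In isotype duodenum the order was Tnfsf13 at 31.3, Tnfrsf11a at 8.84, Tnfsf13b at 2.52, Tnfrsf17 at 1.49, Tnfrsf11b at 1.38, Tnfrsf13b at 0.405, Tnfrsf13c at 0.288 and Tnfsf11 at 0.11 CPM per kilobase. Tnfrsf17 overlapped with Tnfrsf11b, and Tnfrsf13b with Tnfrsf13c. In AC H6 spleen the 3 highest were Tnfrsf13c at 38.6, Tnfsf13 at 8.13 and Tnfrsf13b at 5.80 CPM per kilobase. In isotype spleen the same 3 led in the same order, at 57.1, 7.75 and 7.32 CPM per kilobase, followed by Tnfrsf17 (2.06), Tnfrsf11a (1.64), Tnfsf11 (1.12), Tnfsf13b (0.965) and Tnfrsf11b (0.143). In both spleen groups Tnfrsf17 overlapped with Tnfrsf11a, and Tnfsf11 with Tnfsf13b. BCMA differed least between the groups, at 1.23 in AC H6 duodenum, 1.49 in isotype duodenum, 1.54 in AC H6 spleen and 2.06 in isotype spleen.

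Genes downstream of these receptors were described by list. LTbR, which AC H6 activates, itself uses the non-canonical NF-kB pathway, and the receptor through which these genes changed was not tested. In duodenum all 9 genes of the RANK ligand dependent M cell list rose, with a median of 1.81, where 18.5% of all genes were called higher. Spib, the transcription factor needed for M cell maturation, had 115 ± 15.1 CPM after AC H6 and 10.2 ± 0.931 CPM after isotype (SD, n = 3 each; log2 3.52 ± 0.11, edgeR adjusted p = 9.88e-07). Marcksl1, an M cell marker, rose by 2.68 ± 0.06, Ccl9, a chemokine of the follicle epithelium, by 3.00 ± 0.11, and Anxa5, annexin A5, by 0.97 ± 0.06. Gp2, the M cell receptor for bacteria, is also abundant in pancreatic acinar cells. It had 33.8, 41.9 and 100.3 CPM in AC H6 duodenum replicates 1, 2 and 3 and 6.72, 30.9 and 12.8 CPM in isotype replicates 1, 2 and 3, highest in each group in the library with the most amylase. In spleen 1 of the 8 M cell genes tested rose, Pglyrp1 by 0.85 ± 0.08, which neutrophils also make, and 7 were not called (median 0.06). Spib lay at -0.26 ± 0.08 there. It had 371 ± 1.78 CPM in isotype spleen (SD, n = 3), far above its level in isotype duodenum. The 9 genes summed to 590 to 626 CPM in isotype spleen and 172 to 243 CPM in isotype duodenum. The list therefore does not measure M cells in spleen.

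Over all genes tested, 18.5% were called higher and 16.1% lower in duodenum, and 2.06% and 1.92% in spleen. In lists as small as the RANK signalling, osteoclast and BAFF receptor target lists below, 2 or 3 called genes are not read as a response of the list. Of the 8 non-canonical NF-kB genes 7 rose and 1 fell in duodenum (median 0.97). Nfkb2, the precursor of p52, had 199 ± 3.95 CPM after AC H6 and 32.1 ± 2.21 CPM after isotype (SD, n = 3 each), a log2 fold change of 2.66 ± 0.08. Map3k14, the kinase NIK, rose by 1.59 ± 0.07, and Traf2 and Birc3, parts of the complex that degrades it, by 0.93 ± 0.05 and 0.88 ± 0.07. Chuk, the kinase IKK alpha, was the 1 that fell, by 0.46. In spleen edgeR called none of the 8, with 1 at an unadjusted p under 0.05 and a median of -0.04. Of the 9 RANK signalling genes in duodenum 3 rose, 1 fell and 5 were not called (median 0.00), and in spleen edgeR called none, with 0 at an unadjusted p under 0.05 (median -0.09). The duodenal rises were Nfatc1, the osteoclast transcription factor (0.53 ± 0.08), Rela (0.27 ± 0.07) and Nfkb1 (0.22 ± 0.07). In the osteoclast list 2 of 6 tested genes rose in duodenum (Mmp9 by 1.28 ± 0.11 and Ocstamp by 0.62 ± 0.13), and 1 of 6 in spleen (Mmp9 by 0.96 ± 0.11), with the other 4 and 5 not called. Of the BAFF receptor target and B cell survival list 3 of 9 rose in duodenum, Bcl2a1d by 1.83 ± 0.14, Bcl2a1a by 1.75 ± 0.18 and Bcl2l1 by 0.24 ± 0.07, and 6 were not called (median 0.24). The Bcl2a1 genes are near-identical copies whose reads can be shared. None of that list was called by edgeR in spleen, with 4 at an unadjusted p under 0.05 (median -0.08).

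**Figure D4:**
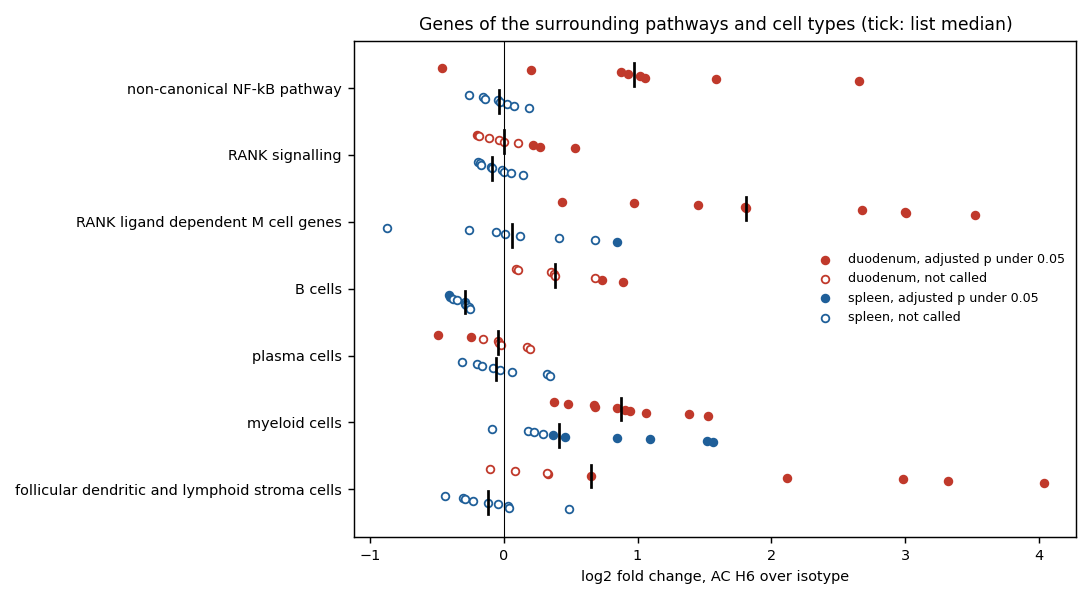
Log2 fold change of AC H6 over isotype (horizontal axis) of each tested gene of 7 lists in duodenum (red) and spleen (blue), filled where the adjusted p was under 0.05, with a tick at the list median. The M cell genes have a median of 1.81 in duodenum and 0.06 in spleen, where the list does not measure M cells. The B cell genes have medians of 0.38 in duodenum and -0.29 in spleen.

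Among genes that process or hold these ligands, 2 of 8 rose, 2 fell and 4 were not called in duodenum (median 0.15). Of all genes tested there 18.5% were called higher and 16.1% lower. Adam17, a sheddase of RANK ligand, rose by 0.25 ± 0.04 and Mmp14, another, by 0.53 ± 0.07. Lgr4, a second receptor for RANK ligand, fell by 0.18 and Sdc1, a heparan sulphate proteoglycan that binds APRIL, by 0.24 on the log2 scale. None of the 8 was called by edgeR in spleen, with 3 at an unadjusted p under 0.05 (median -0.02). Of the close family members 4 of 7 tested rose in duodenum and 3 were not called (median 0.71). Tnfsf15, the ligand TL1A, rose by 2.15 ± 0.19, Tnfsf10, the ligand TRAIL, by 0.71 ± 0.08, Cd40 by 0.88 ± 0.21 and Tnfrsf4, the costimulatory receptor OX40 of T cells, by 0.74 ± 0.20. None of 8 was called by edgeR in spleen, with 2 at an unadjusted p under 0.05 (median -0.15).

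Genes of cells that can make the ligands were measured in the same duodenum libraries, where 18.5% of all genes were called higher and 16.1% lower. Of the follicular dendritic and lymphoid stroma list 6 of 9 rose and 3 were not called (median 0.65), with Cxcl13, which draws B cells into follicles, at 34.8 ± 5.26 CPM after AC H6 and 2.12 ± 0.479 CPM after isotype and Mfge8 at 689 ± 21.1 CPM after AC H6 and 88.8 ± 3.48 CPM after isotype (SD, n = 3 each). All 10 myeloid genes rose (median 0.87). Of the T cell and innate lymphoid genes 2 of 8 rose (Cd4 by 0.51 ± 0.09, Cd3e by 0.33 ± 0.11) and 6 were not called. Of the intestinal epithelium genes 5 of 8 fell and 3 were not called (median -0.32), and the sum of the 8 was 12939 to 14223 CPM after AC H6 and 16646 to 19701 CPM after isotype. The part of these cells in the changes of the ligands and receptors was not tested.

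Genes whose levels over the 12 libraries were most like a member were found by the mean absolute difference of log2 CPM after centring each gene on its mean, among 16654 genes. BCMA, under a mean log2 CPM of 1 in both tissues, was not included. Nearest to Tnfsf11 were Icam1 (0.20), Col17a1 (0.26) and Gm996 (0.27). Icam1, an adhesion molecule for leukocytes, had 51.6 ± 0.451 CPM in AC H6 duodenum, 10.1 ± 0.629 CPM in isotype duodenum, 95.5 ± 5.19 CPM in AC H6 spleen and 96.6 ± 4.28 CPM in isotype spleen (SD, n = 3 each). Nearest to Tnfrsf13c were the B cell surface genes Cd22 (0.16) and Cd37 (0.17) and Fam129c (0.21). Nearest to Tnfrsf13b were A530032D15Rik (0.14), Cd83 (0.14) and Map4k2 (0.16). Nearest to Tnfrsf11a were Rgmb (0.14), the collagen gene Col6a2 (0.14) and Cntnap5a (0.16), and nearest to Tnfrsf11b were Pvrl2 (0.23), Otogl (0.24) and Rps6ka6 (0.25). Cntnap5a and Otogl had 0 CPM in isotype spleen and 0.334 and 0.657 CPM in isotype duodenum. At such levels log2 CPM depends on the count of 2 added before the log. Neither was called in duodenum (edgeR adjusted p = 0.186 and 0.126), so their likeness includes mostly the difference between the tissues. The ligands Tnfsf13b and Tnfsf13 had 0610038L08Rik (0.11), Cdc14a (0.12) and Lcor (0.13), and Akr1a1 (0.0455), Ctage5 (0.0521) and Copb2 (0.0521), as their nearest genes.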

How the data were processed

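Libraries of duodenum and spleen RNA were made with an Illumina TruSeq kit, per the labels' protocols, of a type that does not mark strand. The submitters' processing notes name the tools bcl2fastq 2.19, Trimmomatic, STAR 2.3 and edgeR, and build mm10. How reads were counted, and on which annotation, is not stated there. The deposited values are whole-number read counts per gene, 1 table per library, and per the file headers they are multi-match counts, so reads with several matches may be included. In 0 cases did another row match a member within 1% in every library. Tables were joined by gene symbol, and groups follow the tissue and treatment labels.

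From the counts, edgeR 4.0.16 in R 4.3.3 gave TMM factors, CPM and quasi-likelihood F-tests after filterByExpr (minimum count 10, total 15), without covariates. Each tissue was fitted on its 6 libraries, the interaction on 12 and the tissue difference on the 6 isotype libraries. A standard error is the log2 fold change divided by the square root of F, unstable near 0. At low counts, as for Tnfsf11 in duodenum, it can fall below the counting error. Gene positions and exon lengths are those of GENCODE M21 (GRCm38, the same assembly as mm10), the length being the union of exons. Ratios within libraries used CPM plus 0.5 and a two-sided exact permutation test.

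The members and gene lists were chosen with earlier results of these data known. Named list genes are at most 4 called members of smallest p per list and comparison, with defining markers and the genes nearest to each member. Tnfsf12, Igj, Ms4a1, Chuk, Gp2, Cr2 and, in spleen, Spib are named outside this rule, after their values were seen. Mzb1 and Fdcsp of the lists were not analysed here, and other genes of the B and T cell lists, with the ratios built on B cell genes, are not reported here. Alternatives were DESeq2-style size factors, DESeq2 1.42.0, no filter, a replicate block, each library left out, 1 fit of all 12 libraries, no haemoglobin genes, red cell and acinar scores as covariates, a pseudocount of 2 and, added after the data were seen, the low-amylase duodenum libraries. The tests were tested on simulated data. Libraries of a group differed by more than sampling noise (chi-square per degree of freedom from 24.6 to 243).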

Additional observations from a re-analysis of the deposited data

Results flagged for a closer look

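For 5 of the 8 genes the response to AC H6 differed between duodenum and spleen by the interaction test itself (edgeR, all 12 libraries). Of all 16655 genes tested 20.0% were called by that test, 10.9% more positive in duodenum and 9.13% more negative. The log2 differences, duodenum minus spleen, were 2.68 for Tnfsf11, 1.67 for Tnfrsf13c, 0.75 for Tnfrsf11a, -0.78 for Tnfsf13b and -0.35 for Tnfsf13. In the separate tissues Tnfrsf13c passed the test in both, with opposite signs (1.12 in duodenum and -0.56 in spleen), while the other 4 passed in duodenum only. The amylase share of duodenum libraries and the haemoglobin share of spleen libraries varied within groups, and their part in the 5 differences was not tested beyond the covariate fits of each tissue.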

How the results depend on the processing

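The 6 duodenum calls, the 5 interaction calls and the 7 tissue calls kept their number within 1.5 times under every alternative run, with 4 duodenum calls in the low-amylase libraries alone. Of the 2 spleen calls 1 was left without a filter and in 1 fit of all 12 libraries (in both Tnfrsf13c), and 0 with the replicate block and with the red cell precursor covariate, while DESeq2, other size factors and removal of haemoglobin genes gave 2. Leaving out 1 library gave 0 to 2 calls in spleen, 6 in duodenum, 4 to 5 for the interaction and 7 to 8 between the tissues. The log2 fold changes of Tnfrsf13c and Tnfrsf13b in spleen stayed negative in all of these. The replicate numbers did not pair AC H6 with isotype libraries by correlation of their deviations (-0.0415 to 0.169 in spleen, -0.162 to 0.344 in duodenum). Not every library there correlated best with its own number. A call lost under the replicate block, which changed the count in spleen only, is therefore not read as a weaker effect. Between the isotype tissues each library did correlate best with its own number (0.0948 to 0.317), and between the AC H6 tissues not every one did (-0.127 to 0.109). The tissue comparison was run unpaired, and its 7 calls were kept with the replicate block. The interaction was also run without pairing duodenum and spleen libraries by number. Its replicate block joined AC H6 and isotype libraries of the same number within each tissue only. Whether the 5 interaction calls hold with the tissues paired was not tested.

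With a pseudocount of 2 the log2 ratio of Tnfsf11 to Tnfrsf11b differed by 0.058 in duodenum and -0.12 in spleen, against 0.69 and -0.26 with 0.5. Signs turned only for values near 0 that were not called: Tnfsf11 in spleen at 0.00439 with the red cell covariate and 0.00214 without isotype 1 (range without 1 library -0.11 to 0.00214), the interaction of Tnfrsf13b at -0.0504 without duodenum isotype 2 and -0.0761 without duodenum AC H6 3 (range -0.0761 to 0.25), and the interaction of Tnfrsf17 at -0.13 without spleen isotype 2 and -8.92e-04 without spleen AC H6 1 (range -0.13 to 0.43). The cause was not tested. DESeq2 gave no adjusted p for Tnfrsf11b in spleen. Depth limits the duodenal values of Tnfsf11, on 4 to 8 counts per isotype library, and of Tnfrsf13c, on 13 to 15, and the spleen values of Tnfrsf11b, on 7 to 14.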
